A study of Mus musculus with 6 samples.

Results

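Polycomb genes encode the subunits of the repressive chromatin complexes PRC1 and PRC2 and of the deubiquitinase complex PR-DUB. The set described here holds 34 of them, named by symbol, and all 34 were found among the 51912 genes of the table. Their RNA was measured in R1 mouse embryonic stem cells, an established line kept in the naive state in 2iLIF medium (LIF with inhibitors of MEK and GSK3) and then moved to N2B27, a serum-free medium, with 100 ng/ml FGF2. One group of 3 libraries was taken after 24 h and the other group of 3 after 48 h, with the same line, medium and FGF2 dose in both. Cells left in 2iLIF, or moved to N2B27 without FGF2, were not analysed here, so FGF2, the change of medium and time in culture cannot be told apart.

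The Polycomb system marks and silences developmental genes. PRC2 methylates histone H3 through the enzymes EZH1 and EZH2, which need EED and SUZ12, and accessory subunits such as MTF2 or JARID2 bring it to CpG-rich DNA. PRC1 places ubiquitin on histone H2A through RING1 or RNF2 paired with 1 of 6 PCGF proteins. Canonical PRC1 adds a CBX reader of the PRC2 mark and a PHC protein that compacts chromatin, whereas variant PRC1 carries RYBP or YAF2 in place of CBX. PR-DUB, made of BAP1 and an ASXL protein, removes the ubiquitin. Embryonic stem cells are known for high PRC2 levels and for CBX7 as the main CBX reader, and CBX2 and CBX8 are known to gain weight upon differentiation.

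The 6 libraries held between 19574969 and 23133148 estimated counts. Replicates of a time point differed by 1.84 to 2.29 times counting noise (chi-square per degree of freedom), against 44.5 to 53.5 across time points, so all 6 were counted separately. The labels do not say whether replicates were separate cultures, and p-values measure only the spread between these libraries. Of 7 embryonic stem cell markers, all were present in every library, with a summed level of 4940 to 4993 CPM (counts scaled to a fixed total by TMM-adjusted library size) at 24 h and 3079 to 3166 CPM at 48 h. Nanog, Esrrb, Zfp42 and Dppa5a fell by 1.99, 1.47, 1.06 and 0.70 on the log2 scale, Utf1 rose by 0.60, and Pou5f1 was at 1111 ± 1.99 and 1058 ± 15.2 CPM (SD, n = 3). Of 6 primitive endoderm markers the sum was 9.31 to 11.1 CPM at 24 h and 5.58 to 6.31 CPM at 48 h. Gata4 alone went from 5.84 to 2.25 CPM (log2 difference -1.38). Dab2 and Pdgfra did not pass the test used below. Gata6, Sox7 and Sox17 were too low to be tested, with Gata6 at 0.136 and then 0.259 CPM. Of 6 fibroblast markers the sum was 2.54 to 3.35 and 1.47 to 2.39 CPM, with Postn and Lum at 0 counts in all libraries. Col1a1 was lower by a log2 difference of -1.76, and Thy1 did not pass the test. Col1a2 and Col3a1 were too low to be tested, with Col3a1 at 0.016 and then 0.076 CPM. The part of these shifts in the Polycomb results was not tested. In bulk RNA, fewer cells of a type and less RNA per cell cannot be told apart.

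Between 24 h and 48 h the Polycomb genes moved by less than 2-fold, in both directions. Judged by edgeR's quasi-likelihood test at a Benjamini-Hochberg threshold of 0.05, 25 of the 34 changed (73.5%), 16 upward and 9 downward. Over all 14889 genes tested the share was 62.8%, with 30.9% upward and 31.9% downward. All 34 passed the filter on low counts. Fold changes below are log2FC, the log2 of 48 h over 24 h, and the number after ± beside a log2FC is its standard error, whereas beside CPM or a share it is the SD of 3 libraries. The median log2FC was 0.06 for the Polycomb genes and -0.0063 for all genes tested, and the median size was 0.22 and 0.26. Changes of at least 0.5 were found for 5 Polycomb genes (14.7%, against 24.9% of all genes tested), namely Phc1, Bcor and Yaf2 upward and Phf1 and Cbx8 downward. The largest fitted change was that of Cbx8, at -0.89. Groups of CPM values did not overlap for 27 of the 34 (79.4%), against 66.9% of all genes tested. The summed level of the 34 genes was 5294 to 5389 CPM at 24 h and 6178 to 6184 CPM at 48 h. Phc1 had the highest single level and alone went from 688 ± 28.7 to 1162 ± 13.4 CPM, so the sum does not describe a rise of the whole set.

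**Figure D1:**
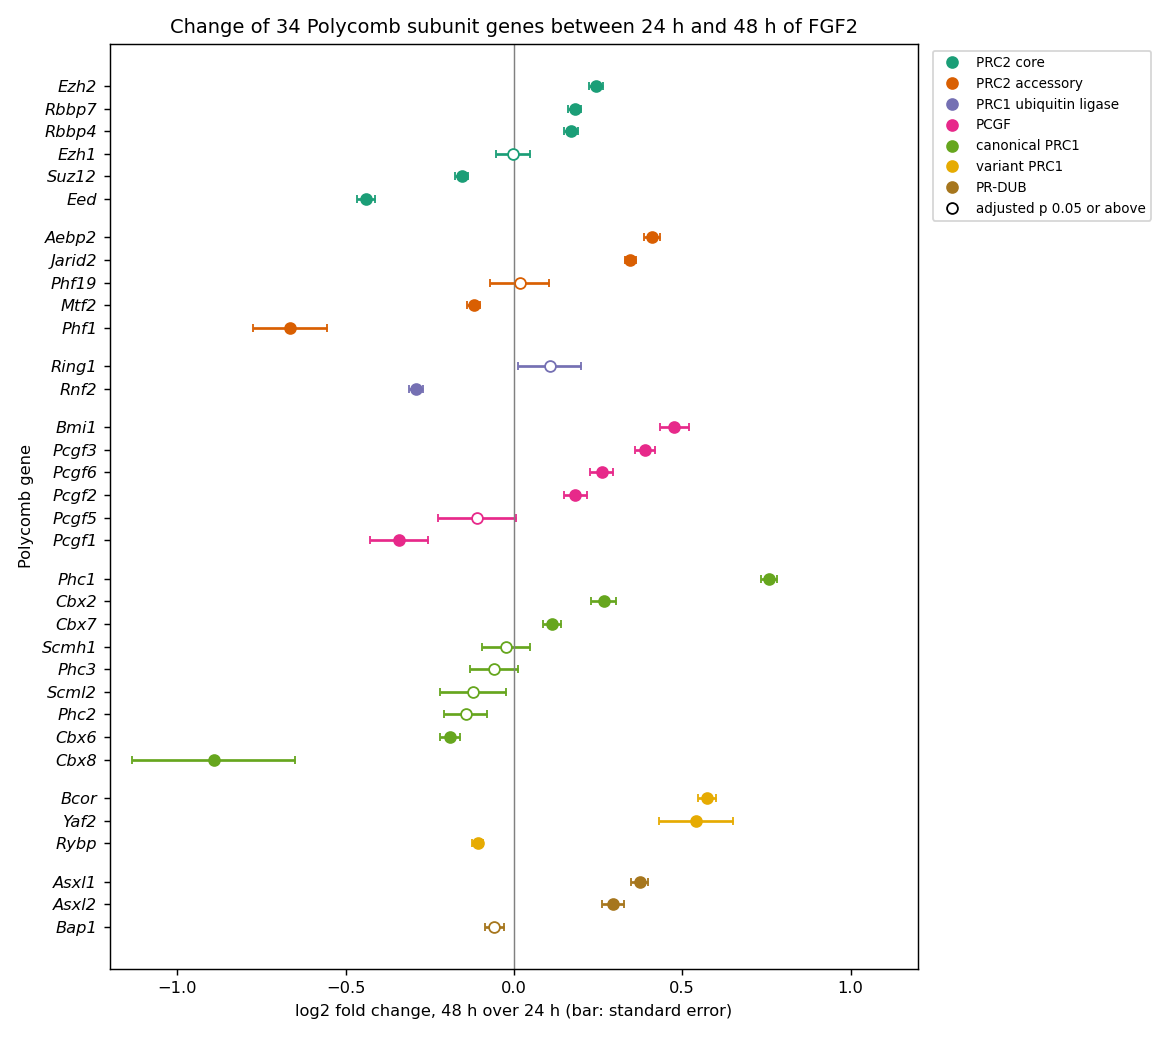
Log2 fold change (48 h over 24 h) of the 34 Polycomb genes, grouped by complex; the bar is the standard error and open circles have an adjusted p of 0.05 or above. The estimates lie between -0.89 (Cbx8) and 0.76 (Phc1), and every complex except the ubiquitin ligase pair and PR-DUB holds genes called in both directions.

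**Figure D2:**
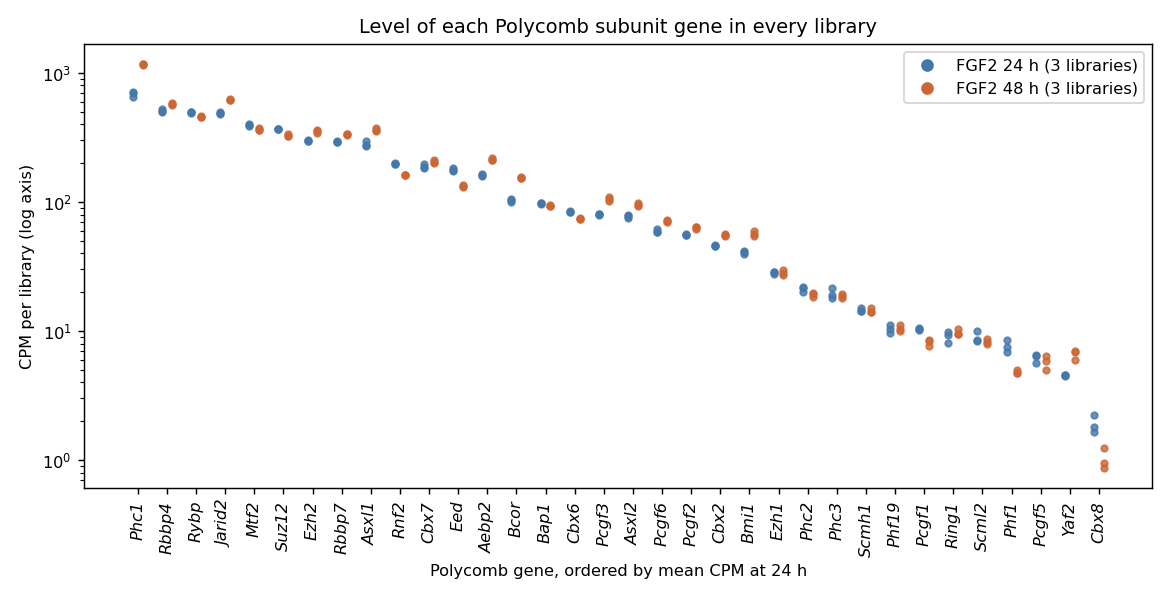
CPM of each Polycomb gene in each of the 6 libraries on a log axis, with 24 h in blue and 48 h in orange. Levels span from about 1 CPM (Cbx8) to over 1147 CPM (Phc1 at 48 h), and replicates lie close together against the distance between genes.

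The promoters of Phc1 and Bmi1, which rose, are shown beside those of Eed and Rnf2, which fell, because these are the largest changes in each direction among genes above 20 CPM with a single start site in the table used. Each sequence is the 250 bases before the RefSeq start on GRCm38.p6, written 5′ to 3′ on the gene's strand, with CG dinucleotides in capitals, since accessory subunits of PRC2 and the variant PRC1 subunit KDM2B bind DNA rich in CG.
Phc1, chr6:122340228-122340477, minus strand: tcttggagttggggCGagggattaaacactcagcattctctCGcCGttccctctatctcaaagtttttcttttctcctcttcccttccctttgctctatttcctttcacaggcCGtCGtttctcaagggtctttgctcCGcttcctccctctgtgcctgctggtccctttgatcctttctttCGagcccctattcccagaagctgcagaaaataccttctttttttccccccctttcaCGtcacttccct
Bmi1, chr2:18676768-18677017, plus strand: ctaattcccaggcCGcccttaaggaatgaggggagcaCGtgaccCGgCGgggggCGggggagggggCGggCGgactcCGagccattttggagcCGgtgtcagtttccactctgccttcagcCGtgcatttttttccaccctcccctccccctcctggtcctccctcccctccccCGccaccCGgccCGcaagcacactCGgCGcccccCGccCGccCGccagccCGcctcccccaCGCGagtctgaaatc
Eed, chr7:89980977-89981226, minus strand: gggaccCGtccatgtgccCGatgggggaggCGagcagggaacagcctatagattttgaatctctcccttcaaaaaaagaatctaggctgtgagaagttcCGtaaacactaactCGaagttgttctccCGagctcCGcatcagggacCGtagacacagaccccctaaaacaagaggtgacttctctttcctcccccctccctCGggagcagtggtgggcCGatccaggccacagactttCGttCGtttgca
Rnf2, chr1:151500992-151501241, minus strand: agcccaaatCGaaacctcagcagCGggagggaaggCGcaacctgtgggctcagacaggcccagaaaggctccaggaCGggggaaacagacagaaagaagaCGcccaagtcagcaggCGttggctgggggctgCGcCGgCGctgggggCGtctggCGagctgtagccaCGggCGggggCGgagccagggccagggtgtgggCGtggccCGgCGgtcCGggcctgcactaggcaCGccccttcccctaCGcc
The Phc1 window holds 8 CG dinucleotides, that of Eed 12, that of Rnf2 20 and that of Bmi1 21. In the annotation GENCODE M21 the Phc1 gene spans chr6:122317731-122340561, so the Phc1 window lies inside it. Its CG count is thus not that of the bases before the GENCODE start. Windows were found for 30 of the 34 genes, 40 windows in all, with a median of 20 CG dinucleotides and 64.8% G or C. Over all 32851 windows of the same length the medians were 6 and 52.4%. The E-box CACGTG, searched on both strands, was found in 8 of the 40 windows (20%), among them that of Bmi1, and in 6.02% of all windows. The NRF1 motif (GCGC, any base, then TGCGC) was found in 6 (15.0%), among them those of Ezh1 and Ezh2, and in 3.74% of all. The CCAAT box was found in 30.0% and 33.9%, and the ETS motif CCGGAAGT in 2.5% and 2.88%. The E2F motif TTTCCCGC was found in 2 windows (Suz12 and Phf19) and in 0.895% of all, and TTTGGCGC in 0 and 0.417%. None of these motifs contains another, and all were searched on both strands. A match is only a run of letters, and the CG-rich base composition of these windows differs from that of the whole set.

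Core PRC2 subunits moved in opposite directions. Of the 6 genes 3 rose and 2 fell, where 30.9% and 31.9% of all genes tested did. Eed, the subunit that reads the methyl mark and activates the enzyme (ENSMUSG00000030619, chr7:89954654-89980983), had 175, 177 and 185 CPM at 24 h and 133, 129.6 and 135 CPM at 48 h. All 48 h values lay below all 24 h values, and log2FC was -0.44 ± 0.03 (adjusted p = 4.38e-10). Suz12, the scaffold of the complex (ENSMUSG00000017548, chr11:79993106-80034123), had 366, 365 and 368 CPM at 24 h and 326, 324 and 337 CPM at 48 h. It fell by 10.2% (log2FC -0.16, adjusted p = 3.29e-06).

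Ezh2, the main methyltransferase of dividing cells (ENSMUSG00000029687, chr6:47530139-47595341), moved the other way, from 301, 295 and 299 CPM to 345, 360.2 and 355 CPM. It rose by 18.5%, with a log2FC of 0.24 ± 0.02 (adjusted p = 2.09e-08). Its paralogue Ezh1, known from non-dividing cells, had between 27.5 and 28.8 CPM at 24 h and between 27.2 and 29.6 CPM at 48 h. The values overlapped, and log2FC was -0.0033 ± 0.05 (adjusted p = 0.96). The histone chaperones Rbbp4 and Rbbp7, which also serve other complexes such as NuRD, rose by 12.4% and 13.3%. Rbbp4 went from 509.8 ± 11.6 to 573 ± 11.1 CPM (SD, n = 3) and Rbbp7 from 295 ± 3.88 to 334 ± 5.80 CPM, and both groups of values were separate for each gene.

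Among the 5 accessory PRC2 genes, Jarid2 and Aebp2 rose and Mtf2 and Phf1 fell. Jarid2 and Aebp2 encode the subunits that define PRC2.2. Jarid2 (ENSMUSG00000038518, chr13:44729474-44921643) had 488, 495 and 485 CPM at 24 h and 628, 617 and 621 CPM at 48 h, with a log2FC of 0.35 ± 0.02 (adjusted p = 1.79e-11). Aebp2 (ENSMUSG00000030232, chr6:140622663-140678472) had 164, 158 and 162 CPM and then 219, 213 and 213 CPM, with a log2FC of 0.41 ± 0.02 (adjusted p = 2.02e-10). No 48 h value of either gene reached down to its 24 h values.

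The Polycomb-like genes Mtf2, Phf1 and Phf19 encode the alternative subunits of PRC2.1 that bind CG-rich DNA. Mtf2, which held most of their summed level, had 398, 392 and 400.0 CPM at 24 h and 359, 372 and 363 CPM at 48 h. It fell by 7.98% (log2FC -0.12, adjusted p = 4.15e-05). Phf1 was low and fell further, from 6.91, 8.50 and 7.46 CPM to 4.69, 4.71 and 5.01 CPM, with a log2FC of -0.66 ± 0.11 (adjusted p = 5.79e-05) that rests on 102 to 176 counts a library. Phf19 had 9.62 to 11.2 CPM at 24 h and 9.99 to 11.1 CPM at 48 h, with overlapping values (0.02 ± 0.09, adjusted p = 0.882).

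Of the catalytic pair of PRC1, Rnf2 (Ring1b) fell and Ring1 did not pass the test. Rnf2 (ENSMUSG00000026484, chr1:151458004-151500955) had 197, 199.5 and 197 CPM at 24 h and 163, 162 and 161 CPM at 48 h. The replicates were nearly identical, and log2FC was -0.29 ± 0.02 (adjusted p = 5.72e-09). Ring1 had 8.06, 9.28 and 9.87 CPM and then 10.4, 9.46 and 9.52 CPM, with overlapping values (0.11 ± 0.09, adjusted p = 0.345).

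The 6 PCGF genes decide which PRC1 subtype forms. Of them 4 rose and 1 fell, where 30.9% and 31.9% of all genes tested did. Bmi1 (Pcgf4, canonical PRC1; ENSMUSG00000026739, chr2:18677018-18686629) rose most, from 42.0, 39.7 and 41.1 CPM to 54.3, 56.7 and 59.9 CPM, with a log2FC of 0.48 ± 0.04 (adjusted p = 6.23e-08). Pcgf2 (Mel18), its paralogue in canonical PRC1, went from 55.8 ± 0.416 to 63.3 ± 0.942 CPM (SD, n = 3), a rise of 0.18. Pcgf3, of the variant complexes that also carry AUTS2 or FBRS proteins, had 79.7, 80.8 and 80.6 CPM at 24 h and 102, 105 and 109 CPM at 48 h (0.39 ± 0.03, adjusted p = 1.09e-08). Its partner paralogue Pcgf5 had 5.66 to 6.53 CPM and 5.01 to 6.44 CPM, with overlapping values (adjusted p = 0.428).

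Pcgf6, of the variant complex with MGA and L3MBTL2 that silences germline genes, went from 59.5 ± 1.51 to 71.4 ± 0.892 CPM (log2FC 0.26, adjusted p = 4.11e-06). Pcgf1, of the variant complex with KDM2B and BCOR, was the only PCGF gene that fell. It had 10.5, 10.4 and 10.3 CPM at 24 h and 7.64, 8.36 and 8.57 CPM at 48 h, with a log2FC of -0.34 ± 0.09 (adjusted p = 0.00249). The 3 libraries of each time stayed apart from those of the other.

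Canonical PRC1 held both the largest rise and the largest fall of the whole set. Phc1, a polyhomeotic protein whose SAM domain polymerises and clusters PRC1 (ENSMUSG00000040669, chr6:122317731-122340561), had 698, 710.2 and 656 CPM at 24 h and 1171, 1169.8 and 1147 CPM at 48 h. It rose by 69.0%, with a log2FC of 0.76 ± 0.02 (adjusted p = 4.28e-14). Its paralogues did not pass the test. Phc2 had 22.1, 19.9 and 21.7 CPM and then 19.7, 19.5 and 18.4 CPM (-0.14 ± 0.06, adjusted p = 0.059; without the second 24 h library -0.19, adjusted p = 0.0279), and Phc3 had 18.1 to 21.5 CPM and 18.1 to 19.4 CPM (adjusted p = 0.497).

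The 4 CBX genes were called in both directions, where 62.8% of all genes tested were called. Cbx7, the most abundant (ENSMUSG00000053411, chr15:79915807-79971119), had 185, 196 and 188 CPM at 24 h and 204, 201 and 210.5 CPM at 48 h (0.11 ± 0.03, adjusted p = 0.00137). Scaled by library size alone this became 0.05 (adjusted p = 0.0866, the highest of the alternatives, the lowest being 4.42e-05), so the call depends on the scaling. Cbx2, whose protein also compacts nucleosomes (ENSMUSG00000025577, chr11:119022962-119031270), rose from 45.6, 46.8 and 45.6 CPM to 56.4, 55.1 and 54.4 CPM (0.27 ± 0.04, adjusted p = 8.59e-06). Cbx6 fell from 84.4, 85.4 and 84.1 CPM to 73.9, 75.2 and 73.6 CPM (-0.19 ± 0.03, adjusted p = 3.57e-05). Cbx8 had the fewest counts of the set, with 45, 37 and 39 counts (2.25, 1.81 and 1.65 CPM) at 24 h and 27, 19 and 21 counts (1.24, 0.868 and 0.947 CPM) at 48 h. It fell by 46.1%, with a log2FC of -0.89 ± 0.24 (adjusted p = 0.00423). Scmh1 and Scml2, which encode further SAM domain partners of PRC1, did not pass the test (-0.02 ± 0.07 and -0.12 ± 0.10, adjusted p = 0.794 and 0.292).

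All 3 genes of the variant PRC1 group changed, where 62.8% of all genes tested did. Bcor, a BCL6 corepressor that binds PCGF1 (ENSMUSG00000040363, chrX:12036740-12160355), had 106, 104 and 101 CPM at 24 h and 155, 156 and 152 CPM at 48 h. It rose by 48.9%, with a log2FC of 0.57 ± 0.03 (adjusted p = 1.52e-11), while its partner Pcgf1 fell. Rybp, which stimulates the ubiquitin ligase, had 495, 493 and 495 CPM at 24 h and 463, 459 and 455 CPM at 48 h and fell by 7.17% (adjusted p = 3.15e-05). Yaf2, its paralogue, rose from 4.56, 4.54 and 4.45 CPM to 6.95, 6.86 and 5.91 CPM (0.54 ± 0.11, adjusted p = 0.000469), on 91 to 151 counts a library.

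In PR-DUB the 2 scaffold genes rose and the enzyme gene did not pass the test. Asxl1 (ENSMUSG00000042548, chr2:153345829-153404007) had 274, 295 and 276 CPM at 24 h and 363, 357 and 374 CPM at 48 h, with a log2FC of 0.37 ± 0.03 (adjusted p = 2.21e-09). Asxl2 went from 77.5 ± 1.94 to 95.1 ± 2.66 CPM (SD, n = 3; 0.29 ± 0.03, adjusted p = 6.33e-07). Bap1, the deubiquitinase, had 98.0, 98.3 and 95.9 CPM and then 93.7, 94.6 and 92.4 CPM. Its values did not overlap, but the change of -0.06 ± 0.03 had an adjusted p of 0.086 (scaled by library size alone, -0.12 and 0.00173).

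Paralogue exchange was examined by the log2 ratio of counts of 2 genes within each library, which needs no scaling between libraries. Of 22 pairs, 17 had ratios that did not overlap between the times. The pairs are paralogues or alternative subunits, except Jarid2 and Aebp2. These 2 belong together in PRC2.2, so their ratio does not bear on exchange. For the CPM of single genes, over all genes tested, the share without overlap was 66.9%. That is a different quantity, since a ratio can move with either gene and several pairs share a gene. It is therefore no background for the count of pairs. For each of these 17 pairs the exact permutation test (two-sided) returned p = 0.1, the smallest that 3 against 3 libraries allow (0.129 after Benjamini-Hochberg adjustment over the 22 pairs), so no pair can pass a threshold of 0.05 by this test. A difference of at least 0.5 was seen in 9 of them.

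The 2 largest shifts were those of Cbx2 and Cbx7 against Cbx8. The log2 ratio of Cbx2 to Cbx8 was 4.32, 4.68 and 4.77 at 24 h and 5.48, 5.95 and 5.81 at 48 h, a difference of 1.16. Cbx7 to Cbx8 and Cbx6 to Cbx8 differed by 1.005 and 0.70, and these 3 pairs share the few counts of Cbx8. Within the better measured CBX genes, Cbx2 to Cbx6 went from -0.89, -0.87 and -0.88 to -0.39, -0.45 and -0.43, and Cbx7 to Cbx6 differed by 0.30 and Cbx7 to Cbx2 by -0.15. Cbx2 was thus higher at 48 h relative to both Cbx7 and Cbx6 in all libraries.

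The ratio of Phc1 was higher at 48 h by 0.90 against Phc2 and by 0.82 against Phc3, with log2 ratios to Phc2 of 4.98, 5.15 and 4.92 at 24 h and 5.89, 5.90 and 5.96 at 48 h. The ratio of Rybp to Yaf2 was lower at 48 h, from 6.75, 6.75 and 6.79 to 6.05, 6.06 and 6.26, a difference of -0.64 that left Rybp far above its paralogue. Pcgf1 to Pcgf6 differed by -0.61, and Mtf2 and Phf19 to Phf1 by 0.54 and 0.67. Smaller shifts without overlap were those of Ezh2 to Ezh1 (0.25), Rnf2 to Ring1 (-0.40), Pcgf2 to Bmi1 (-0.29), Pcgf3 to Pcgf5 (0.4998) and Jarid2 to Aebp2 (-0.07). The ratios of Rbbp4 to Rbbp7, Mtf2 to Phf19, Phc2 to Phc3, Scmh1 to Scml2 and Asxl1 to Asxl2 overlapped between the times, with differences from -0.14 to 0.09 (exact permutation p from 0.2 to 0.8).

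**Figure D3:**
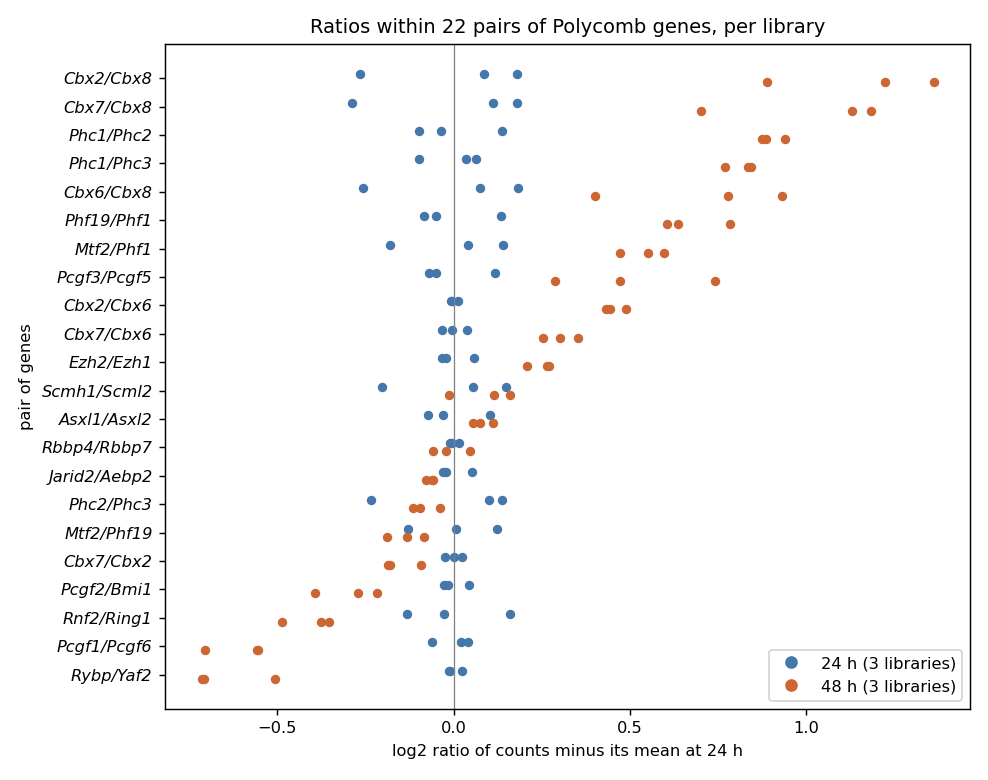
Log2 ratio of counts within each of 22 pairs, minus its mean at 24 h, for each library (24 h in blue, 48 h in orange). The 48 h points lie apart from the 24 h points in 17 pairs, from Rybp/Yaf2 at -0.64 to Cbx2/Cbx8 at 1.16.

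Levels of different genes were compared per kilobase of the transcript with the longest coding sequence in GENCODE M21. On that scale Phc1 was the most abundant Polycomb RNA at both times (163 CPM per kb at 24 h and 276 at 48 h), followed by Rbbp7, Rbbp4, Rybp and Ezh2 at 24 h (132, 116, 109.7 and 107 CPM per kb). The lowest were Phc3 and Cbx8 (1.78 and 0.532 CPM per kb at 24 h). With merged exon length, chosen after the data were seen, Phc1 was again first, but Rybp was second, Suz12 (74.1) stood above Eed (46.8) and Ezh2 (44.7), and Pcgf5 was lowest (0.492 CPM per kb at 24 h), so the order below Phc1 depends on the length. Among the core PRC2 genes Ezh2 was at 107, Eed at 86.7, Suz12 at 83.8 and Ezh1 at 6.76 CPM per kb at 24 h. At 48 h Ezh2 was at 127, Suz12 at 75.2, Eed at 64.1 and Ezh1 at 6.75 CPM per kb. Several families were led by 1 gene. Ezh2 held 94.1% of the EZH level at 24 h, Mtf2 94.4% of the Polycomb-like level, Rnf2 93.3% of the RING level, Phc1 95.8% of the PHC level and Rybp 97.6% of the RYBP and YAF2 level. Asxl1 held 82.2% of the ASXL level. Rbbp4 and Rbbp7 were more even, at 46.8% and 53.2%.

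The PCGF and CBX families were more mixed. Cbx7 held 67.3% ± 0.508 (SD, n = 3) of the summed level of the 4 CBX genes at 24 h and 68.7% ± 0.741 at 48 h. Cbx2 went from 14.5% ± 0.131 to 16.5% ± 0.433 and Cbx6 from 17.5% ± 0.292 to 14.5% ± 0.368. Of the 6 PCGF genes, Pcgf6 held 31.7% ± 0.568 and then 32.9% ± 0.430, Pcgf2 25.8% ± 0.374 and then 25.3% ± 0.623, and Bmi1 13.1% ± 0.347 and then 15.8% ± 0.600. Pcgf1 went from 13.0% ± 0.248 to 8.88% ± 0.434. For the shares of all 4 CBX genes and of every PCGF gene except Pcgf2 the times did not overlap. The two-sided exact permutation p of each was 0.1, the smallest possible. The Pcgf2 shares overlapped (exact permutation p = 0.4). With merged exon length in place of transcript length, Pcgf2 (29.8% at 24 h) stood above Pcgf6 (22.3%) and Cbx2 (22.3%) above Cbx6 (16.4%), so these orders depend on the length used. The direction of the change of each share named here did not.

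**Figure D4:**
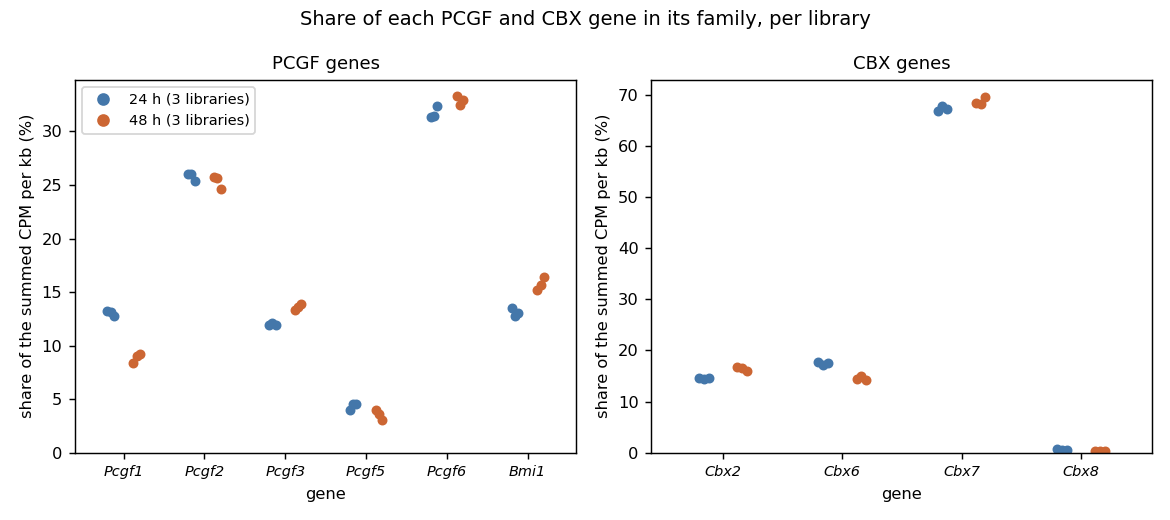
Share of each gene in the summed CPM per kilobase of its family, for the 6 PCGF genes (left) and the 4 CBX genes (right); each point is a library, with 24 h in blue and 48 h in orange. The Pcgf1 share lies between 12.7% and 13.2% at 24 h and between 8.38% and 9.19% at 48 h.

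Partners and opponents of the complexes outside the set were then examined. Of 39 such genes, 38 were matched and tested (all but Ezhip), and 28 changed (73.7%, against 62.8% of all genes tested), 19 upward and 9 downward. With scaling by library size alone the split was 17 upward and 13 downward (for the 34 Polycomb genes, 15 upward and 11 downward). Called changes of at least 0.5 were found in 5 of the 38, against 24.9% of all genes tested. All 5 were partners of PRC1, the group that held 21 of the 38. Auts2, a partner of PCGF3 and PCGF5 that is linked to gene activation, had 46.7, 46.2 and 45.1 CPM at 24 h and 83.6, 85.2 and 89.4 CPM at 48 h (0.90 ± 0.04; adjusted p = 1.61e-12). Fbrsl1, which occupies the same place as AUTS2, fell from 122, 129 and 134 CPM to 72.7, 71.1 and 76.2 CPM (-0.81 ± 0.04, adjusted p = 7.07e-12). Auts2 and Fbrsl1 thus moved in opposite directions while Pcgf3 rose. Fbrs, whose protein is also carried by the PCGF3 complexes, fell from 33.3 to 28.8 CPM (-0.21 ± 0.05, adjusted p = 0.00147).

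Kdm2b, which tethers the PCGF1 complex to CG-rich DNA, rose from 212, 218 and 210.5 CPM to 347, 345 and 328 CPM (0.67 ± 0.02; adjusted p = 3.52e-13), as its partner Bcor did. Wdr5, shared with the activating MLL complexes, fell from 361, 355 and 374 CPM to 229.8, 218 and 226 CPM (-0.69 ± 0.02, adjusted p = 2.49e-13). Sfmbt2 fell from 13.5, 11.7 and 14.1 CPM to 7.82, 7.27 and 8.34 CPM (-0.74 ± 0.09, adjusted p = 3.37e-06). Per kilobase of transcript the highest of the 38 at both times was Usp7, a deubiquitinase of variant PRC1 (141 and 136 CPM per kb), whereas per kilobase of merged exons it was Skp1a (105 and 106, against 86.2 and 83.2 for Usp7). Of the 3 PRC2 partners tested, Epop and Lcor fell by 0.38 and 0.27 on the log2 scale, and Lcorl rose by 0.37.

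Of 8 genes for enzymes that remove or oppose the Polycomb marks, 5 rose and 1 fell, where 30.9% and 31.9% of all genes tested did. The H3 demethylase genes Kdm6a and Kdm6b rose by 0.18 and 0.31 on the log2 scale, the H2A deubiquitinase gene Usp16 by 0.15, and the methyltransferase genes Kmt2a and Kmt2d by 0.29 and 0.28. Kmt2b fell by 0.07 with overlapping values (adjusted p = 0.0348), and Mysm1 and Kmt2c did not pass the test (adjusted p = 0.143 and 0.671).

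The Hox genes are textbook Polycomb targets in embryonic stem cells and were listed whole. Only their RNA is described, and a link between their levels and Polycomb activity was not tested. Of 39 Hox genes, 25 had enough counts to be tested, with 20 changed, 1 upward and 19 downward, where 62.8% of all genes tested changed and 31.9% fell. The filter on low counts lets in genes that are high at only 1 time, so this count is a description. Without the filter on low counts, 38 Hox genes entered and 24 changed, 23 downward, against 37.4% of all genes changed and 19.2% downward in that fit. With at least 10 counts in every library, 17 entered and 13 changed, 12 downward, against 65.7% and 33.4% of all genes. Their summed level was low, with 83.5 to 87.0 CPM at 24 h and 48.4 to 51.9 CPM at 48 h.

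The falling Hox genes came from all 4 clusters. Hoxc13 had 9.11, 8.35 and 8.48 CPM at 24 h and 2.62, 2.61 and 3.65 CPM at 48 h (-1.54 ± 0.13; adjusted p = 2.27e-08). Hoxd9 had 6.76, 6.35 and 6.74 CPM and then 2.39, 1.74 and 2.44 CPM (-1.59 ± 0.14, adjusted p = 3.6e-08). Hoxb9 fell from 4.08 ± 0.603 to 1.75 ± 0.399 CPM (SD, n = 3). Hoxc4 had 55, 58 and 76 counts at 24 h and 8, 3 and 11 counts at 48 h. Hoxc10 had 22, 19.66 and 31 estimated counts and then 0, 2 and 1. Hoxa10, Hoxa13, Hoxb2, Hoxc5, Hoxc6, Hoxc12, Hoxd1, Hoxd4, Hoxd8, Hoxd10, Hoxd11 and Hoxd12 were also called downward by at least 0.5, and Hoxa7 by less (-0.36). Hoxa13, Hoxb2, Hoxc5, Hoxc6, Hoxc12 and Hoxd12, like Hoxc4 and Hoxc10, had under 10 counts in at least 1 library of 48 h. These genes passed the filter through their 24 h libraries, so their calls are descriptions too. Hoxb2, for example, had 9, 12 and 12 counts at 24 h and 2, 3 and 3 at 48 h. The highest Hox gene per kilobase, Hoxd13, had 13.6, 13.8 and 15.7 CPM and then 11.4, 13.6 and 12.6 CPM with overlapping values (adjusted p = 0.0565). The only one called upward, Hoxa5, was at 1.85, 1.46 and 1.23 CPM and then 2.53, 2.51 and 1.58 CPM with overlapping values, and its adjusted p was 0.0499. The calls of Hoxa5, Hoxa10, Hoxa13, Hoxc6, Hoxd1 and Hoxd12 were lost when single libraries of either time were left out, with adjusted p up to 0.191 (Hoxa5 without the third 24 h library). Exons of 10 of the 39 Hox genes overlap an antisense gene in GENCODE M21, and those of 9 overlap a gene of the same strand.

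**Figure D5:**
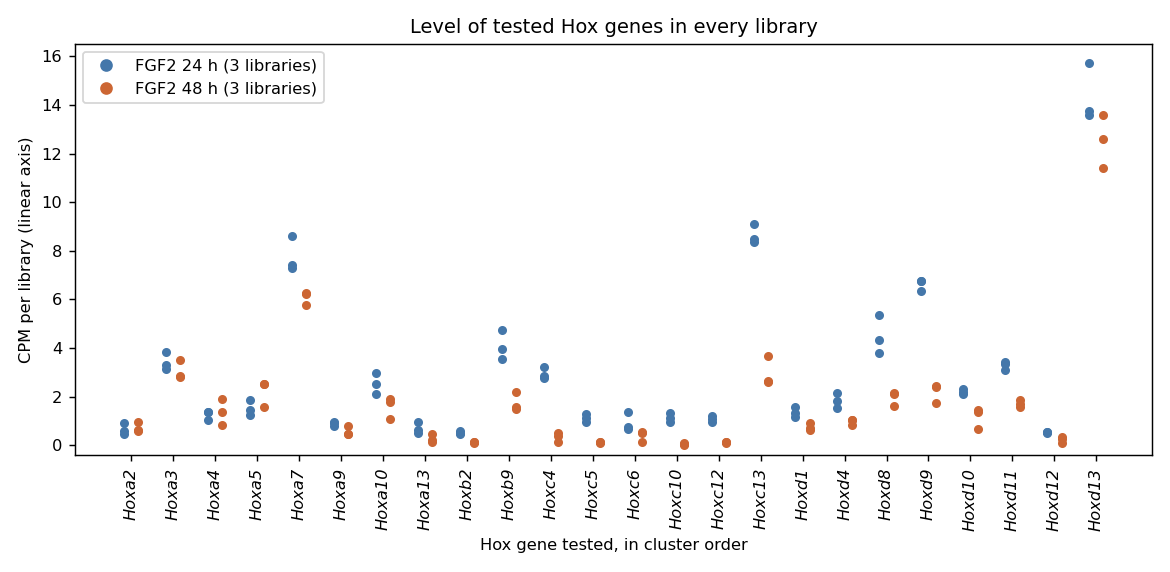
CPM of tested Hox genes in each library on a linear axis, with 24 h in blue and 48 h in orange. Hoxd13 is the highest, at 11.4 to 15.7 CPM, and the 48 h points of Hoxc13 and Hoxd9 lie between 1.74 and 3.65 CPM.

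Of the 34 Polycomb genes, 6 had fractional counts in at least 1 library (Rbbp4, Rbbp7, Rybp, Bmi1, Cbx6 and Asxl2), as RSEM gives where reads are divided between genes. Exons of 12 overlap an antisense gene in that annotation (Ezh2, Eed, Suz12, Rbbp4, Rbbp7, Mtf2, Phf1, Rnf2, Pcgf5, Cbx7, Asxl1 and Asxl2), and Cbx6 overlaps Npcd on its own strand. Exons of 13 of the 38 partner and opponent genes also overlap an antisense gene, among them those of Kdm2b and Fbrsl1. Kdm2b overlaps Gm44574 on its own strand as well and had fractional counts in 3 libraries. The values of all these genes are uncertain to that extent, since whether the authors counted by strand is not given in the sources used here.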

How the data were processed

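The authors deposited 1 table of expected counts per gene, estimated by RSEM and not scaled for depth or length, per the file name. The submitters' processing notes name cutadapt 1.9.1, STAR 2.5.2, RSEM 1.3.0 and the build GRCm38; annotation, strand setting and filters are not given in the sources used here. All 6 columns matched a sample title and 0 columns lacked a sample; symbols came from GENCODE M21, which matched 51633 of 51912 identifiers.

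Counts were rounded, filtered (filterByExpr, minimum count 10), scaled by TMM and tested with edgeR 4.0.16 in R 4.3.3 (quasi-likelihood, group as only term, Benjamini-Hochberg over 14889 genes). Standard errors are the size of the fold change divided by the square root of F. Ratios used counts plus 0.5. On simulated counts for 48 h against 24 h (14624 genes, 200 genes changed), 56% of genes changed by 0.25 were recovered, 89.3% by 0.5 and 96% by 1, with 13 false among 180 calls. Far fewer genes changed there than the 9345 called in the data, and spread followed the trend over genes alone. These rates therefore do not carry over to the real fit. The 34 genes and the lists were chosen with earlier results of these data known. All 34 are named; of the other lists, genes called with a change of at least 0.5 and the highest member, and a few more chosen after their values were seen. Alternatives were other scalings and filters, DESeq2 1.42.0, limma 3.58.1 (voom), unrounded counts, a stricter threshold, a replicate block and leaving out each library. Values of some listed genes are not reported here.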

Additional observations from a re-analysis of the deposited data

How the results depend on the processing

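All 25 called Polycomb genes kept direction and call in the 16 alternatives, except Cbx7 with library size as the only scaling. That setting moved the median of all genes from -0.0063 to -0.07, so changes of this size depend on scaling, and it called Phc2 (-0.20, adjusted p = 0.0106) and Bap1 (-0.12, adjusted p = 0.00173) downward. Phc2 was also called without replicate 2 of 24 h (-0.19, adjusted p = 0.0279). Over the alternatives the adjusted p of Phc2 ran from 0.0106 to 0.202 and that of Bap1 from 0.00173 to 0.319. The 3 genes whose sign turned were never called: Ezh1 was at 0.0040 with RLE scaling, at 0.0044 with DESeq2 and from -0.035 to 0.027 without 1 library, Phf19 at -0.044 with library size only and from -0.042 to 0.074 without 1 library, and Phc3 from -0.12 to 0.015 without 1 library. The differences of the 17 pairs without overlap kept their direction, while those of Rbbp4 to Rbbp7 and Scmh1 to Scml2, which overlapped, turned sign when the third 48 h or the third 24 h library was left out. The Hox count of 20 became 13 (12 lower) when each library needed 10 counts, with 17 genes tested. The 1 Hox gene called higher became 0 with upper quartile scaling, library size only, DESeq2, limma voom and the threshold of 0.01, and ranged from 0 to 1 without 1 library each.

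With the replicate block, 9235 genes and the same 25 Polycomb genes were called and Hoxd12 was not (-1.21, adjusted p = 0.0555); the numbers did not pair the samples (correlations of deviations of -0.046, -0.043 and -0.009). Depth limits Cbx8, with 19 to 45 counts a library, and 14 Hox genes that were under the filter on low counts.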
